A study of Drosophila melanogaster with 24 samples.

Results

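The genes br and Eip93F, 2 of the 15339 genes in the deposited table, were chosen by name as ecdysone-induced fate genes of the late larva and the pupa, and both had counts in all 24 libraries. br (broad) encodes a family of zinc finger transcription factors that share a BTB domain, and Eip93F (ecdysone-induced protein 93F, E93) encodes a transcription factor with a helix-turn-helix DNA-binding domain. Ecdysone is the steroid hormone that times moulting and metamorphosis in insects. It binds a heterodimer of the nuclear receptors EcR and Usp, which then acts on early response genes, most of them transcription factors that regulate further genes. In the fly, br is known for the larva-to-pupa transition and Eip93F for the adult programme, and both are known as late temporal genes of larval neuroblasts. Juvenile hormone acts against this sequence through Kr-h1, which is known to repress Eip93F in the larva.

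RNA was measured by sequencing in neuroblasts, the neural stem cells of the brain, from Drosophila melanogaster animals kept at 25 °C. Cells of the antennal lobe lineage (AL), which makes neurons of the primary olfactory centre, came from larvae at 24, 36, 50 and 84 h after hatching. Cells of the mushroom body lineage (MB), a learning centre, came from larvae at 24, 50 and 84 h after hatching and from pupae at 36 h. Each of the 8 groups has 3 libraries, and the cells of every group carried GFP and were picked from pooled brains by a robotic sorter, 89 to 121 cells a library. The sources used here name neither the driver of the GFP nor the genotype or strain. The labels do not say whether the libraries of a group came from separate animals or pools, so the p-values rest on a spread between libraries that may be technical.

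Libraries held 6.06 to 9.27 M gene counts in AL and 3.15 to 5.83 M in MB, so MB values carry more counting error. The most that a reading of 0 allows, 3 counts, came to 0.324 to 0.952 CPM (counts scaled to a common library total), and such limits cover counting error only. The neuroblast markers dpn, mira, insc, ase, wor, grh and klu were detected in every group and summed to 2116 to 4480 CPM in single libraries. Rx, a homeobox gene of the MB lineage, averaged 70.1 to 160 CPM in the MB groups and at most 1.3 CPM in AL, and ems, a homeobox gene of the AL lineage, averaged 47.9 to 148 CPM in AL and at most 0.667 CPM in MB. Not every marker followed its lineage. oc, of the AL list, averaged 212 to 358 CPM in MB and 1.98 to 72.8 CPM in AL, and Dr, of the MB list, up to 78.5 CPM in AL and at most 1.46 CPM in MB. The 5 AL markers summed to 219 to 456 CPM in AL libraries and 321 to 526 CPM in MB libraries, and the 4 MB markers to 27.8 to 159 and 204 to 455 CPM. The 8 neuron markers summed to 625 to 910 CPM in single libraries, mostly elav and Syx1A. Group means were 255 to 434 CPM for elav and 254 to 330 CPM for Syx1A. The 7 glial markers summed to 355 to 696 CPM in single libraries, mostly nrv2 and Eaat1. The defining glial gene repo averaged at most 3.49 CPM in any group. The 6 haemocyte markers summed to 4.04 to 64.2 CPM and the 6 fat body markers to 3.73 to 27 CPM in single libraries.

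In the deposited annotation br (FBgn0000210) lies on the plus strand of chromosome X from 1516765 to 1539195 in build dm3, the fly build that the submitters' processing notes name; the coordinates themselves carry no build. Eip93F (FBgn0264490) lies on the plus strand of chromosome 3R from 17801348 to 17837910 in the same build. The current models of build BDGP6 are longer, 89738 bp for br against 22431 bp in the deposited table and 65426 bp for Eip93F against 36563 bp. They give br 16 transcripts from 9 start sites and Eip93F 3 transcripts from 2 start sites. The deposited values are 1 count per gene, so they cannot tell the zinc finger isoforms of br apart. In BDGP6 br overlaps Mur2B on the other strand, and the sources used here do not give the strand setting of the counting, but in the deposited table no other gene overlaps either gene.

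In AL neuroblasts both genes rose during larval life, br mainly between 36 and 50 h and Eip93F at every step. Levels are CPM over gene counts with library totals scaled by edgeR's trimmed mean of M-values (TMM). In libraries 1, 2 and 3 br stood at 74.8, 71.3 and 76 CPM at 24 h, at 119, 128 and 137 CPM at 36 h, at 537, 566 and 601 CPM at 50 h, and at 481, 416 and 440 CPM at 84 h. No library of one age overlapped a library of another age, and the 3 libraries of 50 h were the highest. Group means were 74.1 ± 2.45, 128 ± 9.35, 568 ± 31.9 and 445 ± 32.8 CPM (SD, n = 3). These are bulk measurements, in which fewer cells of a type and less RNA per cell cannot be told apart.

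**Figure D1:**
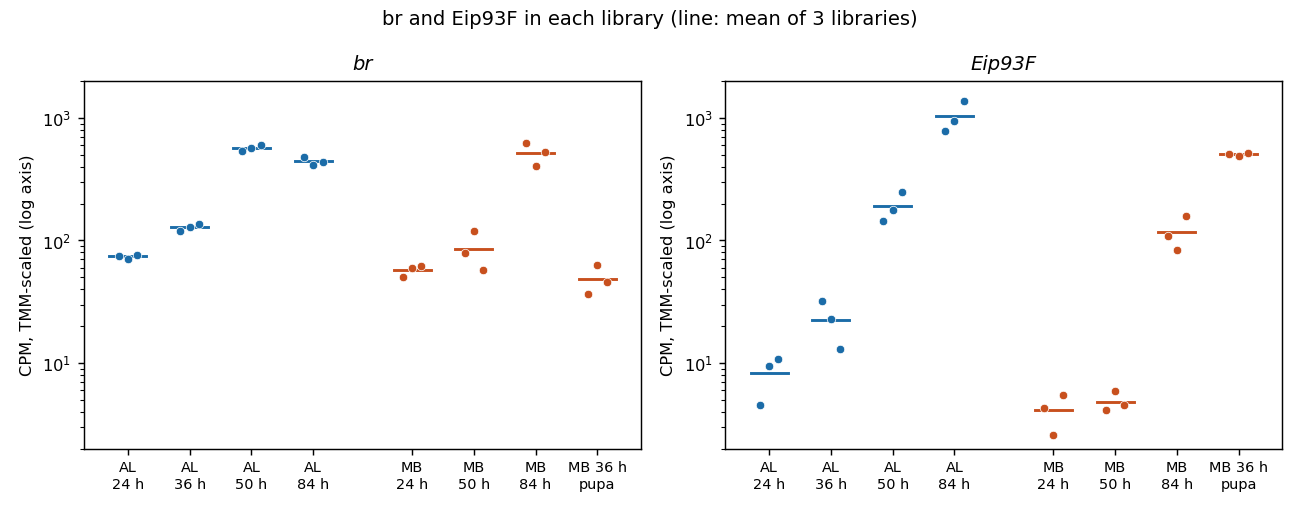
TMM-scaled CPM of br (left) and Eip93F (right) in each of the 24 libraries, on a log axis; points are libraries, lines are means of 3 libraries, blue is AL and orange is MB. In MB br is highest at 84 h (mean 517 CPM), whereas Eip93F goes on rising to 503 CPM in the pupa.

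Eip93F in AL stood at 4.58, 9.53 and 10.8 CPM at 24 h, at 32, 23 and 13 CPM at 36 h, at 145, 176 and 251 CPM at 50 h, and at 785, 937 and 1367 CPM at 84 h. Every library of an older age lay above every library of a younger one. The means of 8.31 ± 3.29, 22.6 ± 9.53, 191 ± 54.7 and 1029 ± 302 CPM put Eip93F at the 63.9th percentile of all genes at 24 h and at the 99.4th at 84 h. br stood at the 87.9th and the 97.9th percentile at the same ages.

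The first step in AL, from 24 to 36 h, was the smallest that passed the test. The log2 fold change was 0.79 ± 0.18 (SE) for br, with an adjusted p of 0.0074 (edgeR quasi-likelihood F test, Benjamini-Hochberg adjusted over 10324 genes), and 1.44 ± 0.37 for Eip93F, with an adjusted p of 0.035. So both members passed a threshold that 3.76% of all tested genes passed. Without AL 24 h library 1, 2 or 3 or AL 36 h library 1 or 2, the log2 fold change of Eip93F was 1.10 to 1.67 and no longer passed. Leaving out single libraries ended no call for br.

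From 36 to 50 h br rose 4.44-fold, a log2 fold change of 2.15 ± 0.19 with an adjusted p of 3.2e-10 in edgeR. Ordered by p, br was the third of the 10324 genes tested, of which 3.27% passed. Eip93F rose 8.43-fold (3.08 ± 0.34, adjusted p = 9.3e-06, the same edgeR test). From 50 to 84 h, where 4.38% of genes passed, the members parted. Eip93F rose another 5.39-fold (2.43 ± 0.32, adjusted p = 0.00011, edgeR), while br was 1.28-fold lower at 84 h with a log2 fold change of -0.35 ± 0.18 (95% interval -0.71 to 0.01, adjusted p = 0.31, edgeR). That difference did not pass, although the libraries of the 2 ages did not overlap.

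Over the whole span from 24 to 84 h br rose 6.01-fold in AL (2.59 ± 0.19, adjusted p = 8.6e-13) and Eip93F 124-fold (6.95 ± 0.41, adjusted p = 1e-09, edgeR). Of all genes, 12.4% passed in this comparison. The log2 fold change of Eip93F was the 7th highest among the genes tested. The 7 genes listed as markers of ganglion mother cells and newborn neurons, the progeny of neuroblasts, summed to 3982 to 5684 CPM at 24 h. The sum was 5533 to 6331 CPM at 36 h, 7156 to 8084 at 50 h and 4090 to 5197 at 84 h, mostly from hdc, brat and pros. From 24 to 84 h nerfin-1 went from 9.77 to 36.2 CPM, dap from 3.5 to 35.6 and Fas2 from 6.14 to 21.2. The mean of pros was also higher at 84 h, and those of hdc, brat and tap were lower. The genes of the list thus moved in both directions, and their sum is no measure of progeny content. The part of these markers in the rise of br and Eip93F was not tested.

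In MB neuroblasts both genes rose mainly between 50 and 84 h. At 24 and 50 h br stood at the 85.4th and 89.5th percentile of all genes, and Eip93F at the 55.7th and 56.4th. For br the 3 libraries gave 50.6, 59.7 and 61.8 CPM at 24 h, then 78.4, 119 and 57.3 CPM at 50 h, and 619, 403 and 529 CPM at 84 h. The ages 24 and 50 h overlapped, and every library of 84 h lay above all others. For Eip93F they gave 4.33, 2.57 and 5.46 CPM at 24 h, then 4.14, 5.88 and 4.55 CPM at 50 h, and 109, 83.8 and 158 CPM at 84 h. Between 24 and 50 h these values overlapped as well, and at 84 h they stood clear of the earlier ages.

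Means in MB were 57.4 ± 5.92, 84.8 ± 31.3 and 517 ± 109 CPM for br and 4.12 ± 1.46, 4.86 ± 0.909 and 117 ± 37.6 CPM for Eip93F (SD, n = 3). From 24 to 50 h, where 3.55% of genes passed, neither member passed in edgeR's test. The log2 fold change of br was 0.57 ± 0.19 (95% interval 0.18 to 0.95, adjusted p = 0.096, edgeR) and that of Eip93F 0.25 ± 0.53 (-0.86 to 1.37, adjusted p = 0.9, edgeR). Without MB 50 h library 3, the lowest of its group for br, the br value was 0.78 and passed. With libraries scaled to the spike-in RNA the all-gene median was -1.11 in this comparison, both members had negative values, and, relative to that median, they were 0.51 for br and 0.21 for Eip93F.

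From 50 to 84 h br rose 6.1-fold in MB, a log2 fold change of 2.61 ± 0.19 with an adjusted p of 7.3e-12 in edgeR. This was the smallest p among the 10324 genes, of which 3.88% passed. Eip93F rose 24-fold over the same interval (4.57 ± 0.42, adjusted p = 2.1e-06, edgeR). Against 24 h, where 14.4% of genes passed, br was 9.01-fold higher at 84 h (3.17 ± 0.20, adjusted p = 5.8e-15, edgeR). Eip93F was 28.4-fold higher (4.83 ± 0.42, adjusted p = 1.4e-07, edgeR). Among the genes listed as markers of neuroblast progeny, nerfin-1 went from 13.3 to 56 CPM and dap from 4.97 to 20.8 CPM over this span. The means of pros, tap, Fas2, brat and hdc were lower at 84 h, and the part of these markers was not tested.

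After pupariation the members moved in opposite directions. The 3 pupal MB libraries gave 36.3, 63.4 and 45.6 CPM for br. For Eip93F the same libraries gave 505, 488 and 517 CPM. All 3 br values lay below every MB library of 84 h and around the values of 24 h, while all 3 Eip93F values lay above every earlier MB library. br fell 10.7-fold from 84 h to a mean of 48.4 ± 13.8 CPM (log2 fold change -3.41 ± 0.20, adjusted p = 1.4e-15, edgeR), the third smallest p of all genes. Eip93F rose 4.31-fold to 503 ± 14.8 CPM (2.11 ± 0.32, adjusted p = 0.00055, edgeR). In this comparison 2.61% of genes passed, 0.726% higher and 1.88% lower in the pupa. The 6 fat body markers summed to 21.1 to 27 CPM in the pupa against 13 to 17 CPM at 84 h, and their part in the result was not tested.

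**Figure D2:**
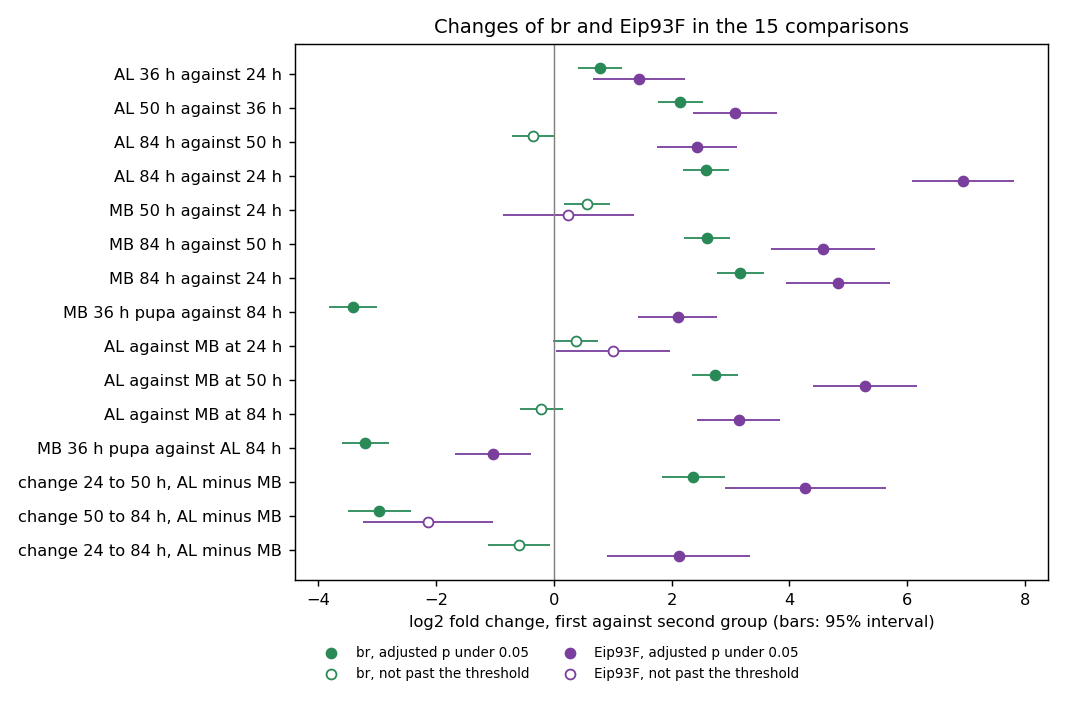
Log2 fold changes of br (green) and Eip93F (purple) in the 15 comparisons, with 95% intervals from edgeR's quasi-likelihood fit; filled points passed an adjusted p of 0.05 and open points did not. The values point in opposite directions in the pupa, -3.41 for br and 2.11 for Eip93F.

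At 24 h of larval life no difference between AL and MB neuroblasts passed the test. The log2 difference of AL against MB was 0.37 ± 0.19 for br (95% interval -0.01 to 0.75, adjusted p = 0.23, edgeR) and 1.01 ± 0.46 for Eip93F (0.04 to 1.98, adjusted p = 0.19, edgeR), and neither passed where 10.8% of genes did. The 3 AL libraries lay above the 3 MB libraries for br, from 71.3 to 76 against 50.6 to 61.8 CPM, and overlapped them for Eip93F. With spike-in scaling, under which the all-gene median was -1.08 here, the sign of both differences turned, to -0.74 for br and -0.07 for Eip93F.

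At 50 h both genes were higher in AL. br was 6.7-fold higher in AL than in MB (2.74 ± 0.19, adjusted p = 1.8e-13) and Eip93F 39.3-fold higher (5.28 ± 0.42, adjusted p = 6.1e-08, both in edgeR), where 11.3% of genes passed. No AL library overlapped an MB library for either gene. The change from 24 to 50 h was itself larger in AL, by 2.37 ± 0.26 on the log2 scale for br (adjusted p = 1e-07) and by 4.27 ± 0.65 for Eip93F (adjusted p = 0.00064, edgeR interaction term), a difference that 2.42% of genes passed.

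At 84 h the lineages no longer differed detectably in br but did in Eip93F. For br the log2 difference of AL against MB was -0.22 ± 0.18 (95% interval -0.58 to 0.15, adjusted p = 0.56, edgeR), with overlapping libraries. For Eip93F AL was 8.81-fold higher (3.14 ± 0.33, adjusted p = 3.6e-06, edgeR), with no overlap, where 7.67% of genes passed. The change from 50 to 84 h differed between the lineages by -2.96 ± 0.26 for br (adjusted p = 4.6e-10, edgeR interaction term), which only 0.552% of genes passed. For Eip93F that difference was -2.14 ± 0.52 and did not pass (95% interval -3.24 to -1.04, adjusted p = 0.08, edgeR). These comparisons share groups with those before them, and so are not independent of them.

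Over the whole larval span from 24 to 84 h, the rise of Eip93F was larger in AL than in MB by 2.13 ± 0.58 on the log2 scale (adjusted p = 0.042, edgeR interaction term), where 4.71% of genes passed. The call was lost in 8 of the 12 fits that left out 1 library, with values from 1.84 to 2.40 over the 12: those without AL 24 h library 1 or 2, AL 84 h library 2 or 3, MB 24 h library 1 or 3, or MB 84 h library 1 or 2. The rise of br differed by -0.59 ± 0.26 (95% interval -1.11 to -0.06, adjusted p = 0.22, edgeR). Under spike-in scaling the br value was 0.26, with a median shift of all genes in the same direction.

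The oldest MB neuroblasts and the oldest AL neuroblasts were compared as the last ages sampled in each lineage. Pupal MB neuroblasts held 9.2-fold less br than AL neuroblasts of 84 h (-3.20 ± 0.20, adjusted p = 3.3e-15, edgeR) and 2.05-fold less Eip93F (-1.03 ± 0.31, adjusted p = 0.043, edgeR), where 8.94% of genes passed. No pupal library overlapped an AL library of 84 h for either gene. The Eip93F call was lost without AL 84 h library 2 or 3 or without any 1 pupal library (-1.10 to -0.78 in those 5 fits).

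Ordered by mean level, br stood lowest in the pupal MB (48.4 CPM), followed by MB at 24 h (57.4), AL at 24 h (74.1), MB at 50 h (84.8), AL at 36 h (128), AL at 84 h (445), MB at 84 h (517) and AL at 50 h (568 CPM). Of the 7 pairs of neighbours in this order, 2 differed in edgeR's test. The larger was the step from AL at 36 h to AL at 84 h (1.80 ± 0.18, adjusted p = 1.4e-09, where 11.3% of genes passed). The step from MB at 50 h to AL at 36 h passed narrowly (0.59 ± 0.18, adjusted p = 0.03, where 11.1% passed), with overlapping libraries, and was lost without AL 36 h library 2 or 3 or MB 50 h library 1 or 3 (0.37 to 0.59). The other 5 neighbouring pairs, among them AL at 84 h and MB at 84 h, and MB at 84 h and AL at 50 h, did not pass the test, and of these only MB at 24 h and AL at 24 h had libraries that did not overlap.

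Eip93F stood lowest in MB at 24 h (4.12 CPM) and MB at 50 h (4.86), followed by AL at 24 h (8.31), AL at 36 h (22.6), MB at 84 h (117), AL at 50 h (191), the pupal MB (503) and AL at 84 h (1029 CPM). Here 4 of the 7 neighbouring pairs differed: AL 24 h and AL 36 h, AL 36 h and MB 84 h (2.37 ± 0.34, adjusted p = 4.7e-05, edgeR; 16.5% of genes passed), AL 50 h and the pupal MB (1.40 ± 0.31, adjusted p = 0.004, edgeR; 15.9% passed), and the pupal MB and AL 84 h. No difference passed between MB at 24 h and MB at 50 h, between MB at 50 h and AL at 24 h, or between MB at 84 h and AL at 50 h (0.71 ± 0.31, 95% interval 0.05 to 1.37, adjusted p = 0.16, edgeR).

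The series title names gradients of Imp and Syp, RNA-binding proteins known to be high in young and in old neuroblasts, respectively. The ratio of mean Imp to mean Syp CPM was 22.8, 5.76, 1.12 and 0.0121 in AL at 24, 36, 50 and 84 h. In MB it was 9.65, 5.65 and 0.712 at 24, 50 and 84 h and 0.0553 in the pupa. AL at 50 h and MB at 84 h, the groups with a ratio near 1, had the highest br levels, 568 and 517 CPM. In these groups neither br (0.14 ± 0.18, adjusted p = 0.7, edgeR) nor Eip93F differed detectably. Below that ratio Eip93F was higher in both groups (1029 and 503 CPM), while br was 445 CPM in one and 48.4 CPM in the other. All 4 genes were read from the same libraries.

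**Figure D3:**
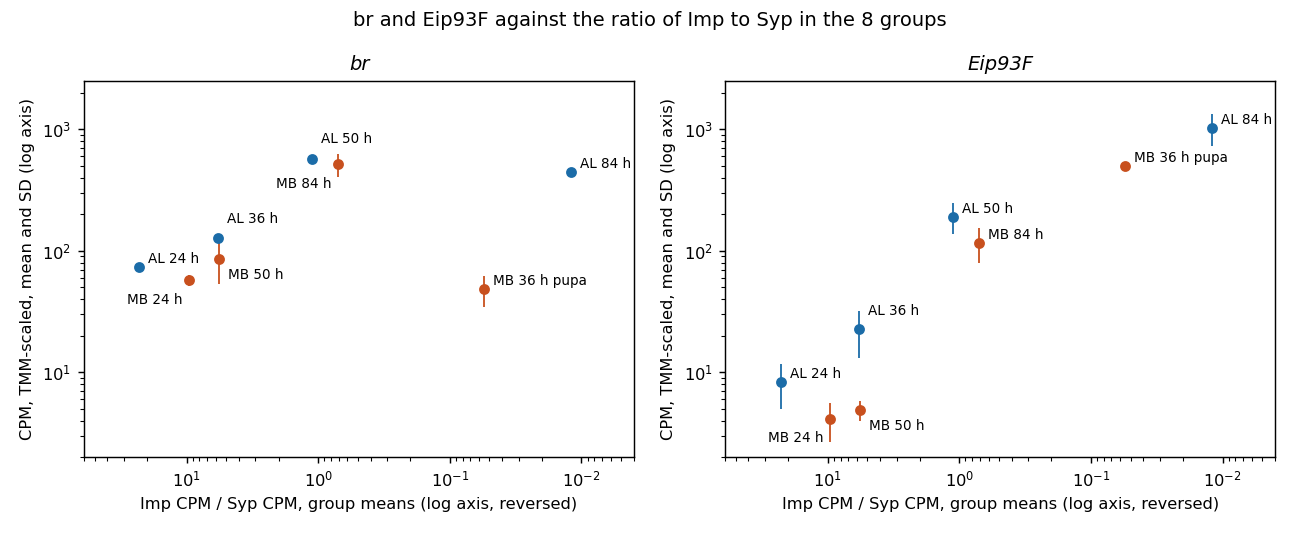
Mean TMM-scaled CPM with SD of br (left) and Eip93F (right) in the 8 groups against the ratio of mean Imp CPM to mean Syp CPM, both axes log and the ratio falling to the right; blue is AL and orange is MB. Eip93F is highest at the lowest ratios, and br separates there into 445 CPM in AL at 84 h and 48.4 CPM in the pupal MB.

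Levels of different genes were compared per length, in TPM (transcript abundance corrected for gene length). Mean TPM of br was 11.1, 17.3, 82.8 and 70.3 in AL at 24, 36, 50 and 84 h and 7.9, 12.7, 82.2 and 7.9 in MB at 24, 50 and 84 h and in the pupa. Mean TPM of Eip93F was 1.53, 3.9, 35.2 and 206 in AL and 0.7, 0.9, 23.7 and 104 in MB at the same stages. So br was the more abundant transcript in the 6 younger groups and Eip93F in the oldest group of each lineage.

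In single libraries the TPM ratio of Eip93F to br ran from 0.0494 to 0.531 in the 18 libraries of the 6 younger groups. It was 2.07, 2.86 and 3.94 in AL at 84 h and 17.5, 9.8 and 14.4 in the pupal MB, so every library of these groups lay above 1 and no other library did. Geometric means were 0.132, 0.211, 0.415 and 2.86 in AL from 24 to 84 h and 0.0837, 0.0734, 0.281 and 13.5 in MB. At the matched ages of 24, 50 and 84 h the log2 ratio was higher in AL than in MB by 0.65, 2.50 and 3.34. The mean of these differences was 2.17 (two-sided exact permutation test of lineage within age, p = 0.00075 over 8000 arrangements).

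**Figure D4:**
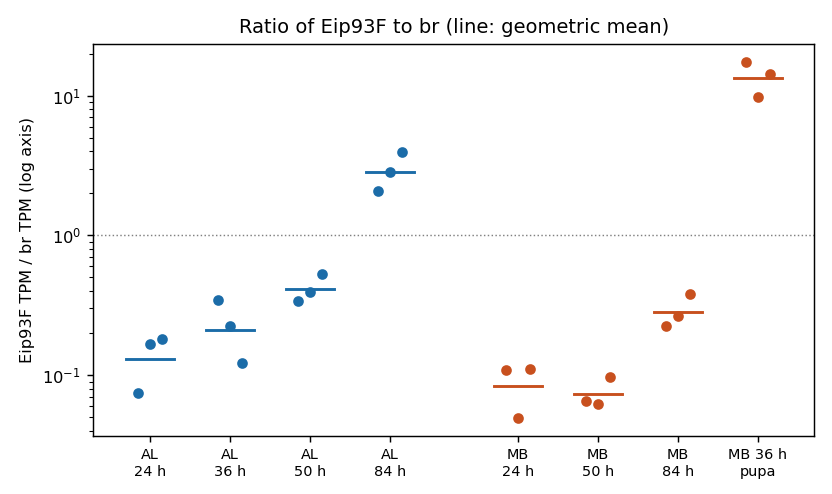
Ratio of Eip93F TPM to br TPM in each library, on a log axis, with the geometric mean of 3 libraries as a line; the dotted line marks equal TPM, blue is AL and orange is MB. The ratio passes 1 in AL at 84 h (geometric mean 2.86) and in the pupal MB (13.5).

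No shared variation of br and Eip93F between libraries of a group was detected. After subtraction of group means of log2 CPM, Pearson's r over the 24 libraries was 0.10 (permutation p = 0.55) and Spearman's rho 0.04 (permutation p = 0.87), the only relation computed of this kind. Without the 2 libraries farthest from the median, both of MB at 50 h, r was 0.02 over 22 libraries. The deviations had the same sign in 12 of the 24 libraries. The biological coefficient of variation in the edgeR fit, 1 value per gene over all groups, was 0.167 for br and 0.284 for Eip93F. Both lay below the common value of 0.471. Within single groups the coefficient of variation of CPM was larger for br in MB at 50 h (36.9% against 18.7% for Eip93F). The same held in the pupal MB (28.5% against 2.94%), and in the other groups it was smaller for br.

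Among 6438 genes with at least 10 CPM in some group, the genes with a pattern most like br over the 8 group means of log2 CPM were CG11509 (Pearson's r 0.963), CG6701 (0.941), Krn (0.925), Gasp (0.900) and CG42550 (0.897). Krn encodes a ligand of the EGF receptor and Gasp a chitin-binding protein. Gasp stood at 18.8 CPM in AL at 50 h and at 41.6 CPM in MB at 84 h, and at most at 6.23 CPM in any other group. Those most like Eip93F were Pcd (0.975), CG14005 (0.963), Syp (0.959), CG8209 (0.955) and sprt (0.951). Pcd encodes a pterin dehydratase. The r between br and Eip93F was 0.547, which ranked Eip93F 466th for br. Pearson's r takes no account of the size of a change. Group means ran from 48.4 to 568 CPM for br and from 4.12 to 1029 CPM for Eip93F. Those of CG6701 ran only from 129 to 166 CPM, of Krn from 7.36 to 12.1 and of CG8209 from 112 to 158. Those of CG11509 ran from 0.82 to 26.5 CPM and of Syp from 1171 to 28847. These are descriptions over 8 means of the same libraries.

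The receptor and its coregulators changed less than br and Eip93F. Of the 7 genes of this list tested, 1 rose and 2 fell in AL between 24 and 84 h, with a median log2 fold change of -0.13 (median of all genes -0.02), where 5.67% of all genes rose and 6.7% fell. EcR, the ecdysone receptor gene, averaged 143 ± 23.5, 220 ± 30.9, 401 ± 64.1 and 219 ± 28.3 CPM in AL at 24, 36, 50 and 84 h, highest at the age at which br was highest. It rose from 36 to 50 h (0.87 ± 0.20, adjusted p = 0.0063, edgeR) and fell from 50 to 84 h (-0.87 ± 0.20, adjusted p = 0.0072, edgeR). The rise was lost without AL 36 h library 1 or AL 50 h library 1 (0.80 and 0.73). The fall was lost without AL 50 h library 1 or AL 84 h library 1 (-0.72 and -0.79), with spike-in scaling (-0.83) and in limma (-0.74). At 50 h EcR was 2.9-fold higher in AL than in MB (1.54 ± 0.20, adjusted p = 1.1e-06, edgeR), and its change from 24 to 50 h was larger in AL by 1.24 ± 0.29 (adjusted p = 0.0094, edgeR interaction term; 1.11 and lost in limma). In MB EcR averaged 116 ± 27.3, 138 ± 45.1, 171 ± 40.2 and 113 ± 14.4 CPM. Neither 84 h against 24 h (0.56 ± 0.20, adjusted p = 0.058, edgeR) nor the pupa against 84 h (-0.60 ± 0.20, adjusted p = 0.13, edgeR) passed there. The former passed in DESeq2 (0.59), without a filter (0.57), in limma (0.75 and 0.77) and with the replicate number as a block (0.56). It also passed without MB 24 h library 3 or MB 84 h library 2 (0.76 and 0.74). The latter passed without a filter (-0.58) and without MB 84 h library 2 (-0.75).

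In AL EcR also rose from 24 to 84 h (0.62 ± 0.20, adjusted p = 0.037, edgeR). This call was lost without AL 24 h library 1 or 2 or AL 84 h library 2 or 3 (0.50 to 0.62) and in limma (0.69 and 0.70). The gene of its partner, usp, averaged 20.2 to 42.2 CPM over the 8 groups and passed in none of the 3 comparisons (-0.24 ± 0.32, 0.64 ± 0.33 and -0.09 ± 0.32 in AL, MB and the pupa). In MB none of the 7 genes rose and 3 fell, with a median of -0.13 (all genes 0.05), where 5.81% of all genes rose and 8.63% fell. The coactivator gene tai fell in both lineages, from 740 ± 165 to 520 ± 99.3 CPM in AL (-0.51 ± 0.15, adjusted p = 0.018, edgeR) and from 649 ± 62.9 to 324 ± 69.2 CPM in MB (-1.0 ± 0.15, adjusted p = 3.8e-06, edgeR). The AL call of tai was lost without AL 24 h library 2 or AL 84 h library 1 and in limma (-0.42). Under spike-in scaling the AL value turned to 0.06. The chromatin remodeller gene Mi-2 fell from 602 ± 87.7 to 384 ± 27.4 CPM in AL (-0.65 ± 0.12, adjusted p = 0.00013, edgeR; -0.03 under spike-in scaling). The corepressor gene Smr fell from 1017 ± 148 to 552 ± 83.8 CPM in MB (-0.88 ± 0.13, adjusted p = 1.5e-06, edgeR). In the pupa none of the list rose and 1 fell, where 0.726% of all genes rose and 1.88% fell.

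Oatp74D, which encodes the ecdysone importer of the fly, was highest in AL at 50 h. It averaged 3.46 ± 0.791, 4.91 ± 1.38, 109 ± 13.1 and 20.6 ± 3.85 CPM in AL at 24, 36, 50 and 84 h. The 3 libraries of 50 h gave 100, 103 and 124 CPM, above every other library of the series, the next being 31.9 CPM. The rise from 36 to 50 h was 22.3-fold (4.47 ± 0.37, adjusted p = 2.3e-11, edgeR) and the fall to 84 h followed (-2.40 ± 0.33, adjusted p = 2.2e-06, edgeR). In MB the importer gene averaged 18.6, 21.3, 15.5 and 16.3 CPM, and at 50 h AL was 5.13-fold higher (2.36 ± 0.34, adjusted p = 1.4e-06, edgeR). From 24 to 84 h 5.67% of all genes rose and 6.7% fell in AL, and 5.81% rose and 8.63% fell in MB. Of the 5 genes of ecdysteroid synthesis and uptake tested, 1 rose and 1 fell in AL (median -0.94). None of the 5 rose and 1 fell in MB (median -0.26). The one that fell in both was shd, which encodes the hydroxylase that makes the active hormone, from 19.9 ± 2.18 to 2.61 ± 0.641 CPM in MB (-2.92 ± 0.59, adjusted p = 0.00028, edgeR) and from 15 ± 3.35 to 4.95 ± 1.33 CPM in AL. The AL value (-1.59 ± 0.55, adjusted p = 0.048, edgeR) passed with all 6 libraries and lost its call whichever library was left out (-1.80 to -1.39). The call was also lost with spike-in scaling (-0.91, with cell number -0.92) and in limma (-1.33 and -1.51). The same held without a filter (-1.56), with only the groups compared (-1.58) and with the replicate number as a block (-1.57).

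**Figure D5:**
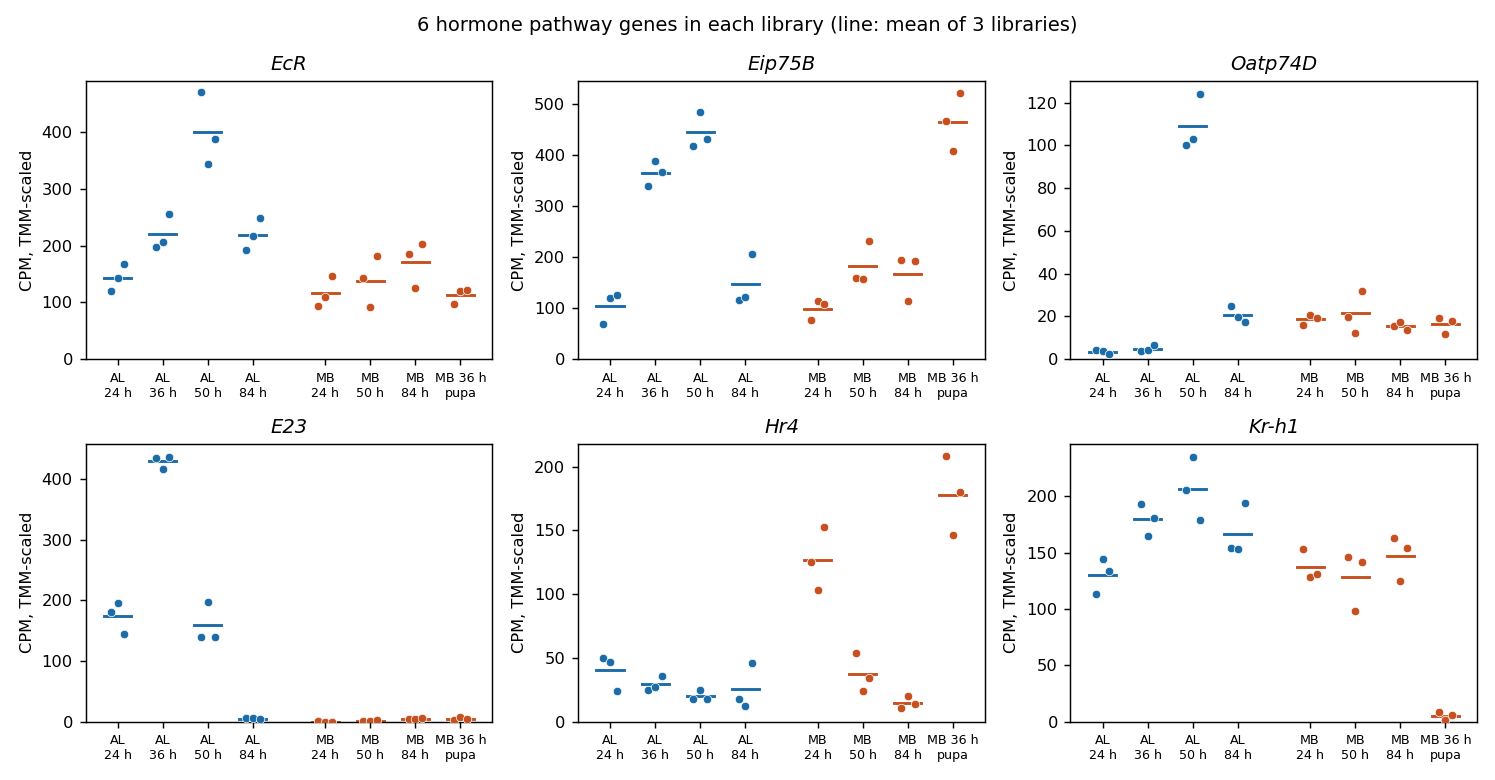
TMM-scaled CPM of EcR, Eip75B, Oatp74D, E23, Hr4 and Kr-h1 in each of the 24 libraries; points are libraries, lines are means of 3 libraries, blue is AL and orange is MB. EcR and Oatp74D are highest in AL at 50 h (401 and 109 CPM), and Kr-h1 is lowest in the pupal MB (5.36 CPM).

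Other ecdysone response genes changed in both directions. Of the 19 tested, 3 rose and 2 fell in AL from 24 to 84 h (median log2 fold change 0.32, all genes -0.02), where 5.67% of all genes rose and 6.7% fell. In MB 7 rose and 3 fell (median 0.75, all genes 0.05), where 5.81% rose and 8.63% fell, and 4 to 7 rose when a library was left out. In the pupa against 84 h 2 rose and 2 fell (median -0.04, all genes -0.02), where 0.726% of all genes rose and 1.88% fell. The falls there numbered 0 to 2 when a library was left out. Scaling to the spike-in RNA put the median of all genes at 0.59 in AL, and up to 7 of the 19 then rose there. The share of rises among all called genes was 45.8% in AL and 40.2% in MB, and over the other settings it was 43.7% to 90.8% and 22.4% to 67.4%.

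Eip75B, an early response gene that encodes a nuclear receptor, averaged 105 ± 30.7, 364 ± 24.6, 444 ± 35 and 148 ± 50.8 CPM in AL at the 4 ages. It rose from 24 to 36 h (1.80 ± 0.25, adjusted p = 5.5e-05, edgeR) and fell from 50 to 84 h (-1.59 ± 0.24, adjusted p = 0.00022, edgeR). At 50 h it was 2.44-fold higher in AL than in MB (1.28 ± 0.24, adjusted p = 0.00073, edgeR). In MB Eip75B averaged 99.1, 182 and 167 CPM in the larva and rose to 465 ± 57.6 CPM in the pupa (1.48 ± 0.24, adjusted p = 0.00054, edgeR). Another early gene, Eip74EF, which encodes an ETS domain factor, stayed at 2.79 to 27.7 CPM. Of 84 h against 24 h in each lineage and the pupa against 84 h, Eip74EF passed only in MB from 24 to 84 h (2.09 ± 0.52, adjusted p = 0.0036, edgeR). This call was lost without MB 84 h library 1 (1.46) and in limma with 1 TPM added (1.23).

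Hr46 and Hr4 encode nuclear receptors of the ecdysone cascade. In MB Hr46 rose from 17.6 ± 11.6 to 206 ± 27.3 CPM between 24 and 84 h (3.52 ± 0.57, adjusted p = 0.00029, edgeR). Hr4 fell from 127 ± 25.1 to 14.9 ± 4.97 CPM (-3.09 ± 0.39, adjusted p = 1.5e-06, edgeR) and then rose to 178 ± 30.9 CPM in the pupa (3.57 ± 0.40, adjusted p = 8.9e-07, edgeR), the reverse of the order of br levels at these 3 stages. ftz-f1, a nuclear receptor gene that acts in the pulses that follow, fell in all 3 comparisons, by 0.59 in AL, by 0.53 in MB and by 0.67 in the pupa on the log2 scale (adjusted p = 0.0032, 0.007 and 0.0031, edgeR). Under spike-in scaling its AL value turned to 0.02. Its call was lost without MB 84 h library 2 in MB (-0.44) and without MB 84 h library 1 or pupal library 2 in the pupa (-0.54). The MB call was also lost with spike-in scaling (-0.74, with cell number -0.78) and in limma (-0.32 and -0.33). Spike-in scaling also ended the pupal call (-0.67, with cell number -0.54).

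Further members of the list were named by the same rule. vri, a bZIP gene of the circadian clock, rose from 8.88 ± 8.5 to 77.1 ± 21.4 CPM in AL (3.13 ± 0.54, adjusted p = 0.00055, edgeR), and Eip55E from 33 ± 4.09 to 68 ± 10.6 CPM (1.04 ± 0.23, adjusted p = 0.0011, edgeR). In MB ImpL2, which encodes a secreted binder of insulin-like peptides, rose from 72.1 ± 52.2 to 493 ± 27.3 CPM (2.78 ± 0.48, adjusted p = 0.00059, edgeR). crol, a zinc finger gene, fell there from 685 ± 18.2 to 353 ± 61.4 CPM (-0.96 ± 0.13, adjusted p = 5.7e-07, edgeR). In the pupa the kinase gene Eip63E fell from 158 ± 48.2 to 80.1 ± 14.3 CPM (-0.98 ± 0.23, adjusted p = 0.0068, edgeR), a call lost without MB 84 h library 1 or 3 or pupal library 2 (-0.86 to -0.82). Spike-in scaling (-0.98, with cell number -0.83) and limma (-0.91 and -0.92) also ended this call.

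E23, an ecdysone-induced ABC transporter gene, was far higher in AL than in MB at 24 and 50 h but not at 84 h. In AL its 3 libraries gave 181, 196 and 144 CPM at 24 h, then 435, 416 and 436 CPM at 36 h, then 140, 197 and 139 CPM at 50 h and 5.39, 5.79 and 4.23 CPM at 84 h. In the 12 MB libraries it ranged from 0 to 7.48 CPM, on counts of 0 to 37. MB means were 0.259, 1.24 and 5 CPM at 24, 50 and 84 h and 4.79 CPM in the pupa. At 84 h the libraries of AL (5.14 ± 0.809 CPM) and MB (5 ± 1.7 CPM) overlapped. At 50 h AL was 127-fold higher than MB (6.93 ± 0.35, adjusted p = 8.1e-19, edgeR), and within AL E23 fell from 24 to 84 h (-5.07 ± 0.28, adjusted p = 3.2e-17, edgeR) while br and Eip93F rose.

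Kr-h1, the juvenile hormone response gene, passed the test in the pupa and not in 84 h against 24 h of either lineage. Its AL mean was 131 ± 16 CPM at 24 h against 167 ± 23.4 CPM at 84 h (0.36 ± 0.22, adjusted p = 0.33, edgeR), and 137 ± 13.9 and 147 ± 20.2 CPM in MB at these ages (0.10 ± 0.23, adjusted p = 0.83, edgeR). In the pupal MB it averaged 5.36 ± 3.75 CPM, a fall by 4.79 ± 0.29 on the log2 scale (adjusted p = 2.5e-14, edgeR). So the high Eip93F level of AL at 84 h (1029 CPM) was read beside 167 CPM of Kr-h1, and that of the pupal MB (503 CPM) beside 5.36 CPM, a difference in Kr-h1 of -4.97 ± 0.29 (adjusted p = 5e-15, edgeR). At 50 h Kr-h1 was higher in AL than in MB, 206 ± 27.8 against 129 ± 26.5 CPM (0.68 ± 0.23, adjusted p = 0.045, edgeR). This call was lost without AL 50 h library 1 or 2 or any 1 library of MB 50 h (0.55 to 0.78). It was also lost with DESeq2 size factors (0.66), with spike-in and cell number scaling (1.01) and in limma (0.65 and 0.66). Of all genes, 12.4% passed in AL and 8.63% fell in MB from 24 to 84 h, and 1.88% fell in the pupa. Of the 7 genes of the juvenile hormone list, none passed in AL in edgeR or DESeq2 (2 at an unadjusted p under 0.05). In MB 1 of them fell, and in the pupa 1 fell. The one in MB was Jheh2, an epoxide hydrolase gene, from 162 ± 21.2 to 82.2 ± 9.86 CPM (-0.98 ± 0.22, adjusted p = 0.00093, edgeR).

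br is itself a BTB gene. Of 13 other BTB genes, none rose and 5 fell in AL from 24 to 84 h (median -0.62), where 5.67% of all genes rose and 6.7% fell, and 1 rose and 5 fell in MB (median -0.84), where 5.81% rose and 8.63% fell. The falls numbered 2 to 4 in AL and 3 to 5 in MB when a library was left out, and 1 to 5 and 3 to 6 over the other settings. chinmo, a BTB zinc finger gene of early-born neuron fates, fell from 2171 ± 145 to 608 ± 187 CPM in AL (-1.84 ± 0.23, adjusted p = 1.7e-05, edgeR) and from 2517 ± 215 to 826 ± 231 CPM in MB (-1.61 ± 0.23, adjusted p = 4.9e-05, edgeR). It fell again in the pupa to 308 ± 46.2 CPM (-1.42 ± 0.23, adjusted p = 0.00089, edgeR), where br fell too. ttk, a BTB repressor gene, fell from 316 ± 47.5 to 102 ± 22.8 CPM in MB (-1.63 ± 0.21, adjusted p = 3.7e-07, edgeR). fru, the sex determination gene, fell in AL and rose in MB, -0.62 ± 0.13 in AL (adjusted p = 0.00077, edgeR; 0.01 under spike-in scaling) and 0.72 ± 0.13 in MB (adjusted p = 7.3e-05, edgeR; 0.51 and lost under spike-in scaling). psq fell from 395 ± 29 to 221 ± 24.6 CPM in MB (-0.84 ± 0.14, adjusted p = 1.4e-05, edgeR), and in AL psq and ken passed at -0.41 ± 0.14 and -0.63 ± 0.21 with all 6 libraries. Each AL call was lost in limma, with spike-in scaling (0.19 for psq and -0.09 for ken) and in 5 of the 6 fits that left out a library. Only the fit without AL 24 h library 1 kept it for psq, and only that without AL 84 h library 3 for ken. In the pupa none of the 13 rose and 2 fell, where 0.726% of all genes rose and 1.88% fell. With the spike-in scaling the median of the list was 0.01 in AL.

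svp, a nuclear receptor gene that acts in early neuroblasts, fell in AL from 778 ± 49.8 to 188 ± 35.1 CPM (-2.05 ± 0.26, adjusted p = 7.4e-06, edgeR). lin-28, an RNA-binding protein gene, fell in both lineages, from 119 ± 35.2 to 1.36 ± 0.53 CPM in AL and from 321 ± 22.1 to 1.41 ± 0.395 CPM in MB. Of 7 temporal factors, 1 rose and 4 fell in AL, where 5.67% of all genes rose and 6.7% fell, 2 rose and 3 fell in MB, where 5.81% rose and 8.63% fell, and 2 rose and 2 fell in the pupa, against shares of 0.726% and 1.88% of all genes there. The pupal rises, of Syp and lin-28, numbered 0 or 1 whichever library was left out. Syp lost its call in all 6 such fits (0.78 to 0.99), and lin-28 in those without any 1 library of MB 84 h or without pupal library 1 (1.86 to 3.42). Spike-in scaling also ended the calls of Syp (0.86, with cell number 1.00) and lin-28 (3.48, with cell number 3.62). The replicate number as a block ended that of lin-28 (3.02). Imp and Syp, the subject of the study, are in this list, so its counts are not independent evidence of a direction.

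Eip93F is known from the fly for its part in the death of larval tissues, and death and autophagy genes were read beside it. Of 11 cell death genes tested, 4 rose and 1 fell in AL from 24 to 84 h (median 0.50), where 5.67% of all genes rose and 6.7% fell, and 2 rose and 1 fell in MB (median 0.82), where 5.81% rose and 8.63% fell. The rises in AL numbered 2 to 4 when a library was left out and 1 to 6 over the other settings. Ice, an effector caspase gene, rose from 28 ± 3.88 to 108 ± 11.9 CPM in AL (1.95 ± 0.27, adjusted p = 5.4e-07, edgeR) and from 29.1 ± 8.43 to 59 ± 21.1 CPM in MB (1.02 ± 0.27, adjusted p = 0.0055, edgeR). Its MB call was lost without MB 24 h library 2 or MB 84 h library 1 (0.70 to 0.82) and with spike-in scaling (0.81, with cell number 0.79). th, the gene of the caspase inhibitor Diap1, fell from 214 ± 35.1 to 112 ± 16.7 CPM in MB (-0.93 ± 0.18, adjusted p = 0.00011, edgeR). skl, a death activator gene, rose from 1.52 ± 1.14 to 26.6 ± 8 CPM in MB (4.08 ± 0.87, adjusted p = 0.00089, edgeR), and Dcp-1, a caspase gene, fell from 61.8 ± 20.3 to 29 ± 6.45 CPM in AL (-1.09 ± 0.31, adjusted p = 0.014, edgeR). The Dcp-1 call was lost without AL 24 h library 1 or AL 84 h library 1 or 2 (-1.02 to -0.87), with spike-in scaling (-0.52) and in limma (-0.96). In the pupa, where 2.61% of all genes passed, none of the 11 passed in edgeR or DESeq2 (2 at an unadjusted p under 0.05). Of 21 autophagy genes tested, 1 rose in AL and 1 fell in MB, with medians of -0.03 and 0.01. Of all genes, 5.67% rose in AL and 8.63% fell in MB. None of the 21 passed in the pupa in edgeR or DESeq2 (1 at an unadjusted p under 0.05, median 0.02). The one that rose in AL, Aut1, went from 18.4 ± 3.64 to 37.5 ± 7.77 CPM (1.03 ± 0.34, adjusted p = 0.036, edgeR). This call was lost without AL 24 h library 1 or 2 or AL 84 h library 1 or 2 (0.88 to 1.03) and with only the groups compared (1.04).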

How the data were processed

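The data are RNA-seq counts of 24 libraries of sorted neuroblasts. Per the labels' protocols, RNA of about 100 cells was amplified (NuGEN Ovation V2) and ERCC spike-in RNA was added. The authors deposited 1 table with a read count per gene and library and 1 table of TPM, which scale with transcript abundance per length. Per the submitters' processing notes, the tools were HTSeq 0.6.1p1, STAR 2.4.0i and Bowtie2 2.1.0, cutadapt 1.7.1 and CASAVA, and the builds named are dm3 and mm10. Their roles, the annotation, filters and strand setting are not stated in these sources; the deposited coordinates carry no build and were read as dm3, the fly build named. The deposited TPM were proportional to counts over a fixed length of each gene, checked over 852 genes (coefficient of variation at most 0.15%), so they are no second measurement. The count table held 15437 rows: 15339 genes, 92 spike-in RNAs, 5 summary rows and 1 nameless row, which took at most 0.000206% of gene counts and was left out. The summary rows gave 6.88% to 11.6% of the counted reads as outside genes and 1.09% to 1.39% as ambiguous.

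Groups were taken from the labels. edgeR 4.0.16 in R 4.3.3 (TMM, filterByExpr, robust quasi-likelihood fit, 1 mean per group) was fitted to all 24 libraries and tested 10324 genes, with Benjamini-Hochberg adjustment within each comparison at 0.05. It was tested on simulated data. The 15 comparisons are the steps of age, 84 h against 24 h, AL against MB at matched ages, the last ages, and 3 interaction terms. Settings also tried were DESeq2 1.42.0, its size factors in edgeR, scaling to spike-in RNA with and without cell number, no filter, only the groups compared, limma 3.58.1 on log2(TPM + 1) and log2(TPM + 0.1), a replicate block, and leaving out each library.

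The members, the gene lists and the rule for named genes were chosen with earlier results of these data known. From each list the rule took up to 4 genes with the smallest adjusted p and at least 10 CPM, in 84 h against 24 h of each lineage and in the pupa against 84 h, and always EcR, usp, tai, Kr-h1, Eip74EF, Eip75B, ftz-f1, Imp and Syp. The steps given for EcR, Eip75B, Oatp74D, E23 and Kr-h1 outside these comparisons, and the neighbours in the order of levels, were chosen after their values were seen.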

Additional observations from a re-analysis of the deposited data

Results flagged for a closer look

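The change of br and of Eip93F with age differed between the AL and MB lineages in 4 tests, each by the interaction term of edgeR's quasi-likelihood fit with Benjamini-Hochberg adjustment. From 24 to 50 h the log2 change was larger in AL by 2.37 for br (adjusted p = 1e-07) and by 4.27 for Eip93F (adjusted p = 0.00064). From 50 to 84 h the difference for br was -2.96 (adjusted p = 4.6e-10). From 24 to 84 h the difference for Eip93F was 2.13 (adjusted p = 0.042). The first 3 passed in every fit that left out 1 library, and the last was lost in 8 of 12 such fits.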

How the results depend on the processing

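The fits counted here cover the 15 comparisons of br and Eip93F, their TPM ratio and, for other settings only, the correlation of their within-group deviations. Of these, 214 of 234 fits that left out 1 library and 242 of 273 fits with another setting kept the direction and the side of the threshold. Where a call changed, the cause was not tested except where stated. Spike-in scaling, without and with cell number, turned signs where the median of all genes moved: MB 50 h against 24 h (br -0.60 and -0.48, Eip93F -0.90 and -0.77), AL against MB at 24 h (br -0.74 and -0.71, Eip93F -0.07 and -0.02), the 24 to 84 h difference of br (0.26 and 0.29) and AL 50 h against MB 84 h for br (-0.21 and -0.26). Relative to the median of all genes these values moved by at most 0.04. Calls lost for AL 36 h against 24 h were br with spike-in and cell number (0.94) and limma (0.60 and 0.64 with 1 and 0.1 TPM added), and Eip93F with only the groups compared (1.45, fewer libraries) and limma (0.92 and 1.27). Eip93F in the pupal MB against AL 84 h lost its call with DESeq2 size factors (-1.01), spike-in scaling (-0.73, with cell number -0.66) and limma (-0.94 and -0.95), and its 24 to 84 h difference with limma at 0.1 TPM (2.10). Calls gained were br in MB 50 h against 24 h without a filter (0.55), Eip93F in AL against MB at 24 h without a filter (1.02), and the 50 to 84 h difference of Eip93F with DESeq2 (-2.16), spike-in scaling (-3.12, with cell number -2.82), no filter (-2.15) and only the groups compared (-2.13).

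Leaving out 1 library gave 1.10 to 1.73 for Eip93F in AL 36 h against 24 h, 0.22 to 0.78 for br in MB 50 h against 24 h, -1.19 to -0.78 for Eip93F in the pupal MB against AL 84 h, and -2.40 to -1.88 and 1.84 to 2.40 for the 50 to 84 h and 24 to 84 h differences of Eip93F. The 50 to 84 h difference passed without AL 84 h library 3. The sign of br turned without MB 50 h library 2 in MB 50 h against AL 24 h (-0.15 to 0.42) and without MB 84 h library 2 in AL 50 h against MB 84 h (-0.004 to 0.29).

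The replicate numbers were not taken to pair the libraries: deviations of libraries of 1 lineage with the same number had a median r of 0.0141 over 36 pairs (-0.0952 to 0.0802, 0 of them over 0.1), although 15 of 24 libraries correlated best with one of their own number, where 8 would if numbers were unrelated, a hint from the data and not from the labels. With the replicate number as a block 2 calls were lost, both of Eip93F: the pupal MB against AL 84 h (-1.0, adjusted p = 0.066, edgeR) and the 24 to 84 h difference (2.14, adjusted p = 0.055, edgeR); no other call of br or Eip93F changed.

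The same settings were applied to the named list genes and neighbours after the data had been seen. Spike-in scaling, without and with cell number, turned the AL 84 h against 24 h values of tai (0.06 and 0.05), usp (0.32 in both), ftz-f1 (0.02 and 0.01) and psq (0.19 and 0.18), that of fru without cell number (0.01), and Kr-h1 in MB (-0.11 and -0.14). For usp in the pupa against 84 h the sign turned with cell number (0.08) and without MB 84 h library 3 or pupal library 2 (-0.24 to 0.25).

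Counts of genes called moved by over 1.5 times with some setting, except AL at 84 against 24 h. The range over settings other than left-out libraries is in parentheses. For AL the counts were 388 (104 to 621) at 36 against 24 h, 338 (106 to 521) at 50 against 36 h, 452 (107 to 687) at 84 against 50 h and 1277 (979 to 1807) at 84 against 24 h. For MB they were 366 (214 to 4369) at 50 against 24 h, 401 (293 to 3048) at 84 against 50 h, 1491 (939 to 1818) at 84 against 24 h and 269 (100 to 378) in the pupa. AL against MB gave 1120 (855 to 4401), 1170 (710 to 1618) and 792 (335 to 1019) at 24, 50 and 84 h, and the pupal MB against AL 84 h 923 (411 to 1128). The lineage differences gave 250 (139 to 4913), 57 (36 to 433) and 486 (329 to 1233) for 24 to 50, 50 to 84 and 24 to 84 h. Depth limits Eip93F most in MB at 24 and 50 h, where it had 12 to 24 counts a library.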
